A study of Ooceraea biroi with 96 samples.

Results

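Brain maturation was followed in 1 clonal lineage of the clonal raider ant (Ooceraea biroi), an ant without queens whose workers reproduce without mating. All libraries of genotype B were taken from the deposited table, which gave 36 of the 96 libraries of the series, 16 from ants aged 1 day and 20 from ants aged 8 days. Every library came from the whole brain of 1 individual. All 36 ants carried genotype B and had been moved as newly hatched larvae into a colony of lineage B or of lineage M, so they differed in age and in the lineage of their nest mates. Of the day 1 ants 7 were reared in environment B and 9 in environment M, and of the day 8 ants 10 were reared in each. These 4 groups are written BinB day 1, BinM day 1, BinB day 8 and BinM day 8. The sources used here do not give the event from which age was counted or which individuals shared a colony, and the titles of the ages have different forms, so age and handling as separate sets cannot be told apart.

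Ants rebuild their nervous system in the pupa, and the adult emerges with a brain that is complete in outline but still changing. In worker ants and other social insects, brain regions such as the mushroom bodies, which serve learning and memory, go on growing and rewiring during the first days of adult life while young workers remain inside the nest. A measurement on the whole brain adds all cell types together, so fewer cells of a type and less RNA per cell cannot be told apart. The annotation used here pairs gene identifiers with classes and positions but with no product names, so genes are described by identifier, class and position, no role is given to any of them, and the brain origin of the samples could not be checked against marker genes.

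Day 8 brains differed from day 1 brains in 6259 of 9666 genes tested, 64.8% of them, and the changes ran in both directions in almost equal number, with 3105 genes higher (32.1%) and 3154 lower (32.6%) at day 8 (edgeR quasi-likelihood F test on counts, 20 against 16 brains, Benjamini-Hochberg adjusted p under 0.05). Most changes were small. Of the called genes 4039 (64.5%) changed by less than 1.5-fold, and 1015 changed by at least 2-fold. Large falls outnumbered large rises: a fall of at least 2-fold was called in 594 genes (6.15%) and a rise of that size in 421 (4.36%). Falls also outnumbered rises at 4-fold (195 against 76 genes), 8-fold (102 against 25) and 32-fold (25 against 8). In 424 genes (4.39%) every day 8 brain lay above every day 1 brain, and in 456 genes (4.72%) every day 8 brain lay below. For 5803 genes (60%) the whole 95% interval of the age effect lay within 1.5-fold of no change.

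The even split depends on the scaling. TMM factors, which correct for a few genes taking a large share of the counts, were 0.887 to 0.992 at day 1 and 1.01 to 1.07 at day 8 and did not overlap. With library totals in their place the median log2 change of all genes moved from -0.00 to 0.14, and 67.9% of the called genes were higher at day 8 in place of 49.6%. Directions of small changes are relative to the bulk of genes, and levels are given as CPM, the counts of a gene per megacount after TMM scaling.

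**Figure D1:**
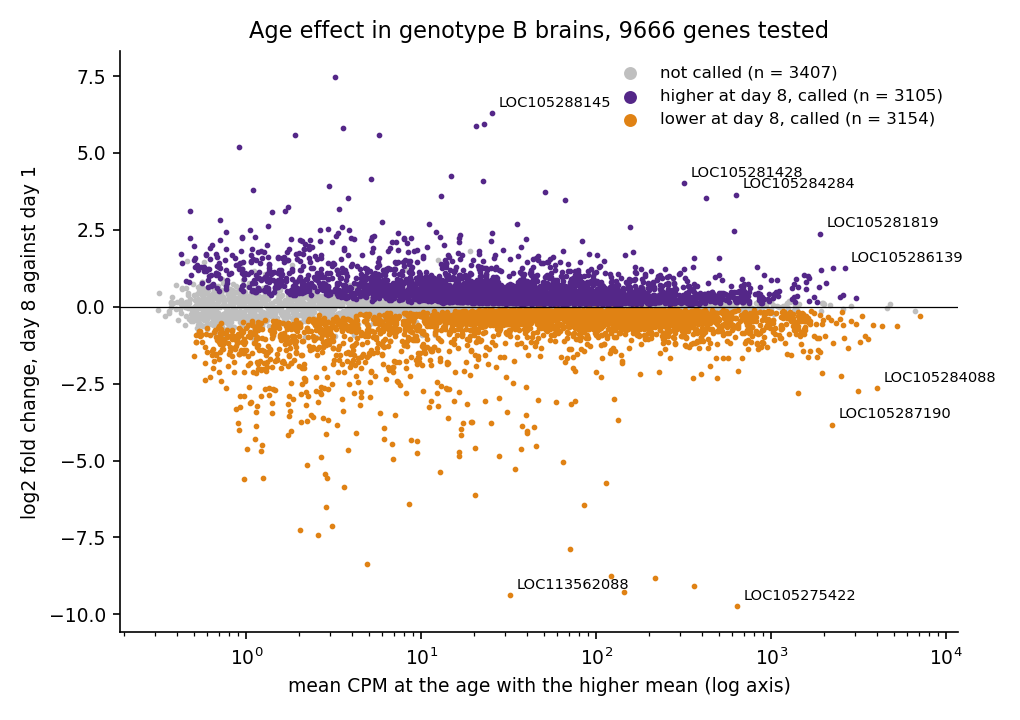
Log2 fold change of day 8 against day 1 (vertical axis) against the mean CPM at the age with the higher mean (log axis) for the 9666 genes tested in genotype B brains. Points are single genes, coloured by direction where called. The deepest points lie below zero, down to -9.73 for LOC105275422, and the highest named point, LOC105288145, is at 6.30.

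Library totals were 14.5 to 22.9 megacounts at day 1 and 10.7 to 23.6 megacounts at day 8, and at the respective ages 10232 to 11515 and 10046 to 11070 features had at least 1 count. The first principal component of log2 CPM held 42.2% of the variance, and age accounted for 97.2% of the variance along it. Every day 1 brain had a negative score and every day 8 brain a positive one. BinB day 1 replicate 9 and BinM day 8 replicate 2 stood apart on the second component (9.88% of the variance), and the second of these was also the library with the lowest total and the fewest features. BinB day 1 replicate 9 was the only library of the 36 that met the rule for an outlying library, a correlation with its own group more than 3 scaled median absolute deviations below the median. Without it 6487 genes were called.

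**Figure D2:**
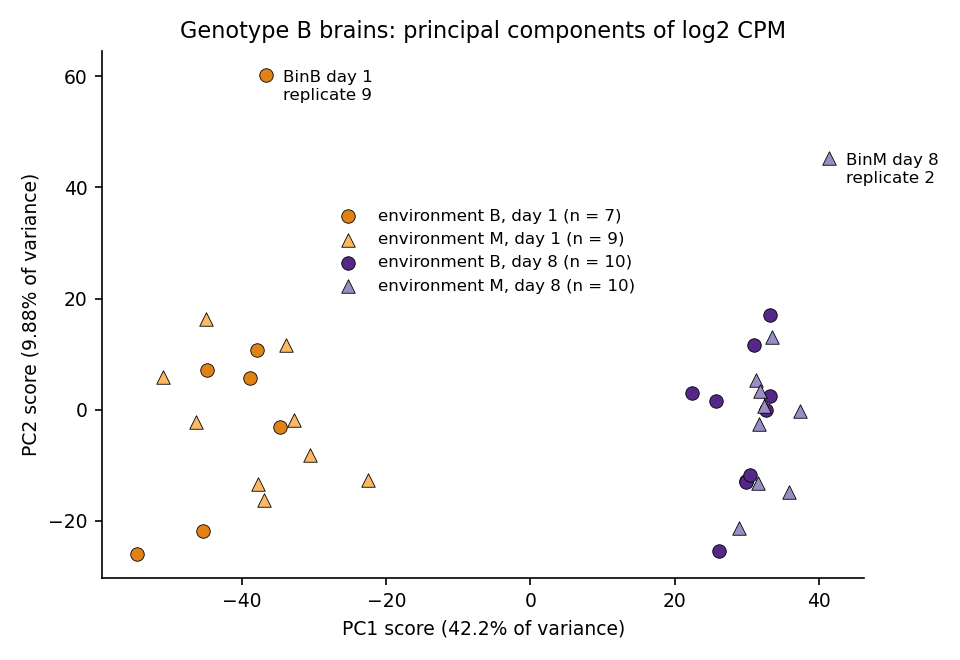
Scores of the 36 genotype B brains on the first and second principal components of log2 CPM, with age by colour and rearing environment by colour shade and marker. Day 1 brains lie on the left and day 8 brains on the right, and the rearing environments are mixed within each age.

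The genes that fell at least 2-fold made up 7.11% to 10.5% of a day 1 library (median 8.48%) and 2.98% to 3.5% of a day 8 library (median 3.23%). The genes that rose at least 2-fold went from 0.768% to 1.37% (median 0.961%) up to 2.46% to 3.25% (median 2.75%). Both sets were chosen by this contrast, so these shares describe how much of the brain's RNA the sets hold and are no test.

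The deepest falls were of genes detected in every day 1 brain and at or below 3.65 CPM in every day 8 brain. LOC105275422, a protein-coding gene (chromosome 3, 6449680 to 6453994, plus strand), ranged from 65.8 to 2506 CPM (median 351) at day 1 and from 0 to 2.42 CPM (median 0.408) at day 8. The ages did not overlap, and the lowest day 1 brain was BinB day 1 replicate 9. The mean went from 641 ± 695 CPM at day 1 to 0.778 ± 0.78 CPM at day 8 (± SD, n = 16 and 20), a log2 change of -9.73, SE 0.55 (95% interval -10.84 to -8.62, edgeR adjusted p = 9.23e-17).

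Among the genes tested, LOC113561968 and LOC105287113 lie next to each other on the minus strand of chromosome 5 (5996500 to 5998319 and 5999807 to 6002947). LOC113561968 ranged from 55.6 to 1415 CPM (median 207) at day 1 and from 0 to 2.55 CPM (median 0.481) at day 8 (log2 change -9.08, SE 0.51, adjusted p = 1.03e-16). Its neighbour LOC105287113 ranged from 27 to 382 CPM (median 71.1) at day 1 and from 0 to 1.27 CPM (median 0.166) at day 8 (log2 change -8.75, SE 0.48, adjusted p = 5.16e-17). In both genes each day 1 brain stood above every day 8 brain. Another gene of chromosome 5, LOC109611483 (7171986 to 7173486, minus strand), ranged from 27.2 to 694 CPM (median 85.3) at day 1 and from 0 to 1.63 CPM (median 0.0932) at day 8 (log2 change -9.29, SE 0.55, adjusted p = 2.63e-16).

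On chromosome 6, LOC113562077 (14523532 to 14526004, minus strand) ranged from 27.6 to 1131 CPM (median 155) at day 1 and from 0 to 3.65 CPM (median 0.242) at day 8 (log2 change -8.83, SE 0.53, adjusted p = 4.23e-16). LOC113562088 (11749142 to 11760957, minus strand) ranged from 1.08 to 98.3 CPM (median 28.7) at day 1 and was at 0 in most day 8 brains, with 14 counts over all 20 of them (range 0 to 0.236 CPM, log2 change -9.38, SE 0.54, adjusted p = 1.38e-16). Neither gene had overlapping ages. The last of the 8 deepest falls were LOC105285555 on chromosome 9 (6443856 to 6447748, minus strand) and LOC105285658 on chromosome 8 (14965346 to 14982130, minus strand). LOC105285555 ranged from 9.91 to 221 CPM (median 48.5) at day 1 and from 0 to 0.831 CPM (median 0.269) at day 8 (log2 change -7.89, SE 0.46, adjusted p = 2.28e-16). LOC105285658 ranged from 12.1 to 259.9 CPM (median 72.8) and from 0.0619 to 3.45 CPM (median 0.694) at the respective ages (log2 change -6.45, SE 0.42, adjusted p = 2.77e-15). All 8 genes are protein-coding, none shares exon sequence with another gene, and none had overlapping ages. The 8 were picked as the largest called falls with at least 5 CPM at day 1.

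Levels of these genes also differed widely between day 1 brains, and in most of the genes the same brains were high. BinB day 1 replicate 2 was the highest day 1 brain for 6 of the 8. Across the 16 day 1 brains, on log2 of CPM plus 0.05, all 28 pairs of the 8 genes had a positive Pearson r, with a median of 0.87. Of the 28 pairs 16 passed a permutation test adjusted over these 28. LOC105275422 and LOC113561968, which lie on different chromosomes, had r = 0.992 and Spearman's rho = 0.991 (each with a permutation p of 1e-05, the lowest value open to 100000 permutations). The r was 0.995 within environment B, 0.989 within environment M, and 0.987 without the 2 brains farthest from the median of LOC105275422. LOC113562088 and LOC105285658 formed a second pair (r = 0.839, rho = 0.791, permutation p = 3e-05 and 0.00038, and r = 0.802 without the 2 farthest brains). With the other 6 genes LOC113562088 had r between 0.00372 (LOC113562077) and 0.324 (LOC105287113), none of which passed. LOC105285658 had r between 0.284 (LOC113562077) and 0.472 (LOC105275422) with the same 6, and again none passed. Its r with them was 0.616 to 0.761 within environment B and -0.170 to 0.197 within environment M.

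The 8 largest called rises with at least 5 CPM on average at day 8 were smaller, and in 7 of the 8 the ages overlapped. LOC105288145 (chromosome 10, 1256392 to 1270887, minus strand) ranged from 0 to 2.08 CPM (median 0) at day 1 and from 0 to 118 CPM (median 19.1) at day 8 (log2 change 6.30, SE 0.79, edgeR adjusted p = 1.62e-08). It shares exon sequence on the same strand with LOC105288080 and LOC105288082, so its counts may include shared reads. In BinB day 8 replicate 7 it was at 0, and without BinM day 1 replicate 9 or BinB day 1 replicate 4 the log2 change was 7.85 or 7.55.

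LOC105286420 (chromosome 14, 4043848 to 4047443, minus strand) ranged from 0 to 1.31 CPM (median 0.258) at day 1 and from 1.57 to 173 CPM (median 12.5) at day 8, and was the only one of the 8 largest rises whose ages did not overlap (log2 change 5.95, SE 0.65, adjusted p = 9.97e-10). LOC105279397 (chromosome 2, 18255079 to 18262222, plus strand) ranged from 0 to 3.14 CPM (median 0.121) at day 1 and from 1.85 to 64 CPM (median 13.5) at day 8 (log2 change 5.88, SE 0.64, adjusted p = 7.3e-10). A single day 1 brain, BinM day 1 replicate 9, lay inside the day 8 range, and without it the log2 change was 6.83 (without BinB day 1 replicate 4, 6.51). LOC105281428 (chromosome 3, 2381992 to 2395567, plus strand), which shares exon sequence with LOC105281322 on the other strand, ranged from 1.98 to 218 CPM (median 7.1) at day 1 and from 26.6 to 976 CPM (median 200.1) at day 8 (log2 change 4.03, SE 0.64, adjusted p = 1.44e-06), and 5.03 without BinM day 1 replicate 9, its highest day 1 brain.

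Values of LOC105283725, LOC105282231 and LOC105285570 depend on a single day 8 brain. LOC105283725 (chromosome 10, 8121435 to 8129774, plus strand) ranged from 0 to 1.03 CPM (median 0) at day 1 and from 0.0637 to 64.8 CPM (median 2.1) at day 8, with its highest value in BinM day 8 replicate 10 (log2 change 5.57, SE 0.83, adjusted p = 4.14e-07). Its log2 change was 4.81 without that brain and 7.25 without BinB day 1 replicate 2. LOC105282231 (chromosome 5, 8115672 to 8163554, minus strand) and LOC105285570 (chromosome 1, 14480746 to 14508420, plus strand) were both highest in BinB day 8 replicate 3, at 44.7 and 287 CPM.

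LOC105282231 ranged from 0 to 1.84 CPM (median 0.176) at day 1 and from 0 to 44.7 CPM (median 1.21) at day 8 (log2 change 4.14, SE 0.82, adjusted p = 3.98e-05, and 3.28 without that brain). LOC105285570 ranged from 0 to 5.64 CPM (median 0.82) at day 1 and from 0.178 to 287 CPM (median 3.33) at day 8 (log2 change 4.10, SE 0.86, adjusted p = 9.45e-05), with a log2 change of 2.86 without that brain, and it missed the threshold with limma-voom (log2 change 2.34, adjusted p = 0.0596). In each of these genes 12 of the 20 day 8 brains lay within the day 1 range. LOC105283508 (chromosome 1, 21991351 to 21991926, minus strand), which shares exon sequence with LOC105283506 on the other strand, ranged from 0 to 2.49 CPM (median 0.603) at day 1 and from 0.482 to 89 CPM (median 5.82) at day 8 (log2 change 4.25, SE 0.64, adjusted p = 6.35e-07). All 8 are protein-coding. Across the 20 day 8 brains all 28 pairs of the 8 rising genes had a positive r (median 0.63). Of these 23 passed a permutation test adjusted over the 28 pairs of rising genes. The closest pair was LOC105282231 and LOC105285570, on chromosomes 5 and 1, with r = 0.966 and rho = 0.965 (each with a permutation p of 1e-05, and r = 0.957 without the 2 farthest brains).

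**Figure D3:**
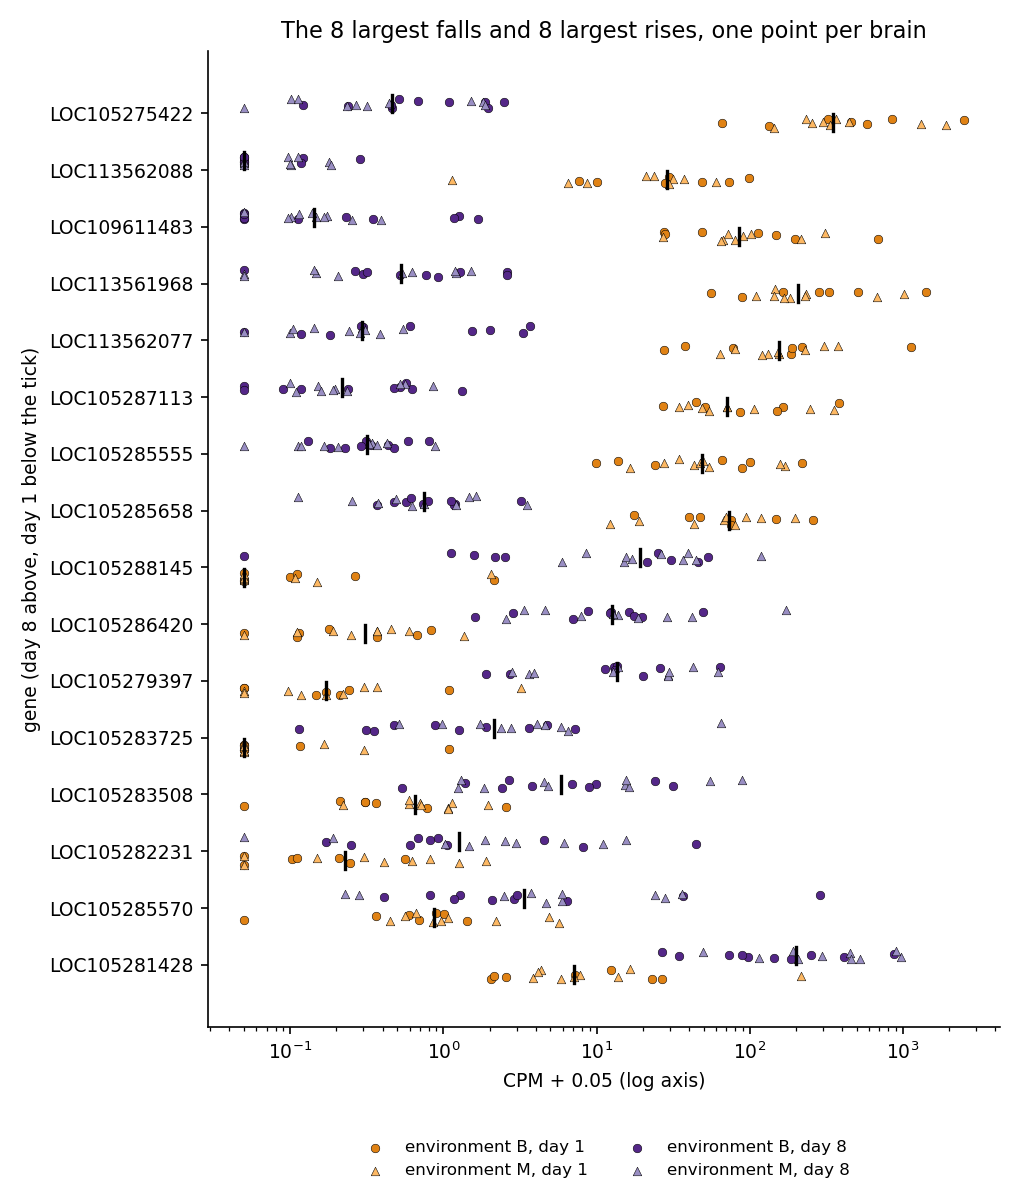
CPM plus 0.05 (log axis) of the 8 largest falls (upper 8 rows) and the 8 largest rises (lower 8 rows) in each of the 36 brains. In each row the upper points are day 8 and the lower points day 1, circles are environment B, triangles environment M, and black bars are medians. The ages are fully apart in all 8 falls and in LOC105286420 among the rises.

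Several of the most plentiful transcripts of the young brain also fell. CPM is not adjusted for gene length, so the levels below are compared only within a gene. LOC105284088 (chromosome 6, 3054034 to 3060459, minus strand) ranged from 1601 to 7089 CPM (median 3966) at day 1 and from 251 to 892 CPM (median 638) at day 8, with no overlap, and its mean went from 4042 ± 1584 CPM to 653 ± 149.5 CPM (± SD over the brains of each age), a log2 change of -2.64, SE 0.16 (adjusted p = 2.47e-16). LOC105287190 (chromosome 6, 10653981 to 10696033, minus strand), added to the named genes after its values were seen, fell from 2222 ± 863 CPM to 155 ± 49.9 CPM (log2 change -3.84, SE 0.18, adjusted p = 4.07e-19). Its lowest day 1 brain, at 989 CPM, was above its highest day 8 brain, at 291 CPM.

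Smaller falls near 2-fold were seen in LOC105276827, LOC105276301 and LOC105281711, again with no overlap between ages. LOC105276827 (chromosome 2, 7998388 to 8005110, plus strand) consists of a single exon of 6723 bases and ranged from 2441 to 5611 CPM (median 3496) at day 1 and from 1512 to 1927 CPM (median 1759) at day 8 (log2 change -1.03, SE 0.07, adjusted p = 2.6e-15). LOC105276301 (chromosome 9, 14247078 to 14267329, minus strand) ranged from 2536 to 5004 CPM (median 3045) and from 1208 to 1695 CPM (median 1448) (log2 change -1.15, SE 0.07, adjusted p = 2.67e-16). LOC105281711 (chromosome 6, 4480258 to 4502130, plus strand) ranged from 1499 to 4614 CPM (median 2673) and from 842 to 1336 CPM (median 1048) (log2 change -1.36, SE 0.10, adjusted p = 5.44e-14). In these 3 genes the day 8 brains were much closer to each other than the day 1 brains, with SDs of 120.4, 152 and 133 CPM against 742, 676 and 781 CPM.

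LOC105279483 (chromosome 9, 15605082 to 15639359, plus strand) was uneven among day 1 brains. Of the 16 day 1 brains 14 lay between 239.9 and 401 CPM, while BinM day 1 replicate 6 was at 28074 CPM and BinM day 1 replicate 9 at 18092 CPM. All day 8 brains lay between 153 and 219 CPM, below every day 1 brain. The medians were 295 and 190.0 CPM, whereas the edgeR log2 change was -2.74, SE 0.51 (adjusted p = 1.93e-05). That of DESeq2 was -0.65 (DESeq2 adjusted p = 1.18e-23). Within environment B, where neither of the 2 high brains lies, the log2 change was -0.71 and did not pass (edgeR adjusted p = 0.421). The spread used by this test was fitted on all genotype B brains, the 2 high brains included.

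Among the plentiful genes that rose, LOC105286139 (chromosome 12, 358405 to 365317, plus strand) ranged from 753 to 1343 CPM (median 1135) at day 1 and from 1991 to 2965 CPM (median 2673) at day 8 (log2 change 1.26, SE 0.06, adjusted p = 5.83e-19). LOC105280521 (chromosome 12, 3225755 to 3318595, minus strand), a gene of 54 exons, ranged from 773 to 1264 CPM (median 918) and from 1684 to 2812 CPM (median 2209) (log2 change 1.26, SE 0.06, adjusted p = 1.09e-18). Neither had overlapping ages. LOC105274973 (chromosome 1, 17256151 to 17259909, minus strand) rose with overlap, from 555 to 1152 CPM (median 828) at day 1 and from 917 to 3106 CPM (median 1817) at day 8 (log2 change 1.21, SE 0.15, adjusted p = 5.23e-09). LOC105281819 (chromosome 6, 2489017 to 2502600, minus strand) ranged from 269.9 to 602 CPM (median 368) at day 1 and from 478 to 2401 CPM (median 2077) at day 8 (log2 change 2.38, SE 0.15, adjusted p = 2.5e-16). A single day 8 brain, BinM day 8 replicate 2, lay inside its day 1 range. The last 3 were added to the named genes after their values were seen.

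**Figure D4:**
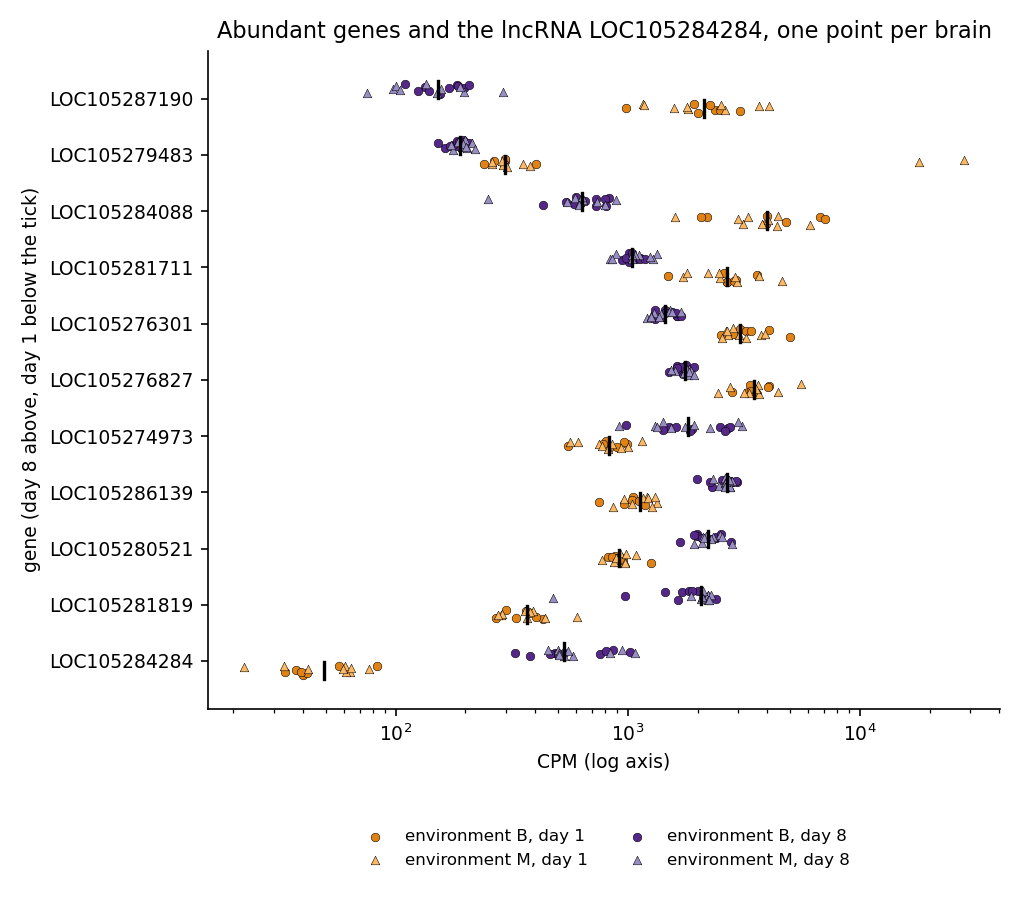
CPM (log axis) of 10 plentiful protein-coding genes and the lncRNA LOC105284284 in each of the 36 brains, ordered by fold change from the largest fall at the top. In each row the upper points are day 8 and the lower points day 1, circles are environment B, triangles environment M, and black bars are medians. The day 1 brains at 28074 and 18092 CPM in LOC105279483 lie far to the right of the others.

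Long noncoding RNAs (lncRNAs), transcripts with no annotated protein, took 0.356% to 0.458% of the counts of a day 1 library and 0.439% to 0.597% at day 8. Changes of at least 2-fold took a larger share of lncRNAs than of protein-coding genes: of 503 tested, 68 (13.5%) were called at least 2-fold higher and 58 (11.5%) at least 2-fold lower, against 3.83% and 5.85% of 9136 protein-coding genes. Called without regard to size, the shares were 32% and 27.4% against 32.1% and 32.9%. The median SE of the log2 change was 0.21 in lncRNAs and 0.07 in protein-coding genes. Over all genes, the lowest 25% by mean level had 10.6% called at least 2-fold higher and 15.8% at least 2-fold lower, and the part of expression level in the difference between classes was not tested.

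Among lncRNAs of at least 5 CPM at the higher age, the largest rise was that of LOC105284284 (chromosome 12, 8687592 to 8688938, minus strand, 388 exonic bases), which ranged from 22.3 to 83.1 CPM (median 49.3) at day 1 and from 326 to 1071 CPM (median 533) at day 8 with no overlap (log2 change 3.65, SE 0.19, 95% interval 3.26 to 4.03, adjusted p = 4.66e-18). LOC105287559 (chromosome 5, 5567036 to 5568509, plus strand) rose at a low level, from 0 to 2.21 CPM (median 1.08) at day 1 and from 2.39 to 6.9 CPM (median 5.38) at day 8, also with no overlap (log2 change 2.27, SE 0.21, adjusted p = 1.65e-11). The largest falls were LOC105277613 (chromosome 7, 2598656 to 2604403, plus strand), which ranged from 0.741 to 42 CPM (median 4.98) and from 0 to 1.0 CPM (median 0.127) with some overlap (log2 change -4.94, SE 0.43, adjusted p = 2.8e-12), and LOC105276973. LOC105276973 (chromosome 3, 10961150 to 10962952, minus strand), which shares exon sequence with LOC105276974 on the other strand, ranged from 9.24 to 103 CPM (median 23.4) and from 0.357 to 8.97 CPM (median 2.12) with no overlap (log2 change -3.42, SE 0.35, adjusted p = 1.49e-10).

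With off defined as a mean under 0.1 CPM and on as at least 1 CPM, 20 genes were on at day 1 alone and 5 at day 8 alone, all protein-coding. The limits were chosen after the data were seen. LOC113562088, described above, is 1 of the 20. LOC105282593 on chromosome 4 (2810771 to 2812585) averaged 8.48 CPM at day 1 and 0.0899 at day 8. LOC105287590 on chromosome 5 (5178398 to 5180239) averaged 4.89 CPM at day 1 and 0.00644 at day 8. Of the 5 that came on, LOC105283725 is described above. LOC113561895 on chromosome 5 (2689825 to 2693578) went from 0.0534 to 3.58 CPM (log2 change 5.80). LOC105288082 on chromosome 10, which overlaps LOC105288145 on the same strand, went from 0.0102 to 3.2 CPM. Its log2 change of 7.46 was above that of LOC105288145, at a level too low for the list of largest rises.

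Genes that changed at least 2-fold in the same direction lay side by side in places. Neighbours here are next to each other among the genes tested, and untested features may lie between them. Runs of at least 3 such neighbours numbered 19 for falls and 6 for rises, runs of at least 4 numbered 8 and 1, and runs of at least 5 numbered 3 and 0. There were also more 2-fold falls than rises, and the numbers of runs were not tested. Some members share exon sequence with another gene, so their counts may include shared reads. This holds for all 3 members of a rising run on chromosome 3 (4137991 to 4161657). Next to LOC105275422, LOC105275423 and LOC105275424 lie on the same strand within 23.8 kb (chromosome 3, 6449680 to 6473460). LOC105275423 fell from 2.87 ± 5.83 CPM to 0.0285 ± 0.102 CPM (log2 change -6.50, SE 0.73, adjusted p = 1.13e-09) and was at 0 in 17 of the 20 day 8 brains. Its log2 change was -5.39 without BinB day 1 replicate 2 and -7.89 without BinB day 8 replicate 7. LOC105275424 fell from 2.67 ± 2.37 CPM to 0.125 ± 0.257 CPM (log2 change -4.89, SE 0.54, adjusted p = 6.67e-10).

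LOC105285555 belongs to a run of 4 falling genes on chromosome 9 (6311883 to 6469762) and lies inside the span of LOC105285556, outside its exons and on the other strand. In it LOC105285556 fell from 33.5 ± 15.9 CPM to 6.12 ± 1.81 CPM, LOC105285557 from 8.16 ± 15.3 CPM to 1.12 ± 0.504 CPM and LOC105279599 from 0.859 ± 0.451 CPM to 0.327 ± 0.259 CPM (SD, n = 16 and 20, log2 changes -2.47, -2.80 and -1.38, adjusted p = 1.01e-13, 8.66e-07 and 0.000421). Without BinB day 1 replicate 2 the log2 change of LOC105285557 was -1.88. A run of 5 on the plus strand of chromosome 4 (17411621 to 17450518) holds LOC105282406, LOC105282422, LOC105282434, LOC105283507 and LOC105282443. In it LOC105282422 fell from 64.5 ± 90.1 CPM to 1.98 ± 0.592 CPM (log2 change -5.03, adjusted p = 2.96e-13).

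The only run of 4 rising genes begins with LOC105281819 on chromosome 6 (2489017 to 2511585). The lncRNAs LOC105281818 and LOC105281817 lie inside its span and outside its exons, LOC105281818 on its strand and LOC105281817 on the opposite one, and rose from 1.43 ± 0.405 CPM to 5.28 ± 2.53 CPM and from 1.83 ± 0.578 CPM to 6.46 ± 2.49 CPM (log2 changes 1.91 and 1.82, adjusted p = 1.11e-08 and 1.09e-10). Whether reads from unspliced transcripts of LOC105281819 enter the counts of LOC105281818 and LOC105281817 was not tested. For LOC105281817, on the opposite strand, this depends on the strand setting of the counting, which the sources used here do not give. The next gene tested, LOC105281822, rose from 3.06 ± 2.06 CPM to 7.02 ± 2.16 CPM (log2 change 1.18, adjusted p = 3.81e-06).

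Long genes held a larger share of the falls. Of the 25% of genes with the shortest spans (up to 2563 bases) 3.56% fell and 4.59% rose at least 2-fold, and of the 25% with the longest (from 11096 bases) 8.65% fell and 4.14% rose. The median span was 7220 bases among 2-fold falls, 4496 among 2-fold rises and 4859 over all genes tested. Across genes, which are not independent replicates, the Spearman correlation of the log2 change with span, a description with no test, was -0.09. Among chromosomes, the share of 2-fold falls ran from 2.61% of 345 genes on chromosome 13 to 8.45% of 781 genes on chromosome 6.

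The change with age was also tested apart in ants reared with their own lineage and in ants reared with lineage M. Within environment B 5113 genes were called (52.9%), and within environment M 5037 (52.1%). Of these 4212 were called in both, 82.4% of the first list and 83.6% of the second, and all 4212 had the same sign. The 2 contrasts share no library, but they were estimated in 1 model.

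The test of the difference itself, the age by environment interaction, called no gene (0% of 9666, edgeR), with 229 genes at an unadjusted p under 0.05. DESeq2 and limma-voom also called none, with 254 and 169 genes at an unadjusted p under 0.05. Each of these counts is under a share of 0.05 of the genes tested, the share expected if no gene differed. The lack of calls does not show the age effects to be equal. The median 95% interval of the interaction reached 0.31 to either side on the log2 scale, and for 82.3% of genes the interval lay within a 2-fold difference. The 4 genes with the lowest interaction p-values were LOC105279483, LOC105281739, LOC105287262 and LOC105274935 (adjusted p = 0.995 each). LOC105287262 (chromosome 5, 2683499 to 2686803, minus strand) was at 365 CPM in BinM day 8 replicate 10 and 38.3 CPM in BinB day 1 replicate 2, against at most 4.37 CPM in all other brains. Its age effect did not pass with edgeR (log2 change 1.80, SE 1.06, adjusted p = 0.136) and passed with DESeq2 (log2 change 1.72, adjusted p = 0.00116). With edgeR it was 4.90 without the second of these (adjusted p = 0.00108) and -0.94 without the first (adjusted p = 0.255). LOC105281739, which shares exon sequence with a gene on the other strand, had a log2 change of -2.23 in environment B and -0.53 in environment M. LOC105274935 averaged 0.915 CPM at day 1 and 0.402 CPM at day 8 in environment B, and 0.69 and 0.98 CPM in environment M.

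Day 1 brains varied more among themselves in most genes. Among 7460 genes with at least 5 CPM at both ages, the SD of log2 CPM within groups was larger at day 1 in 5667 (76%), with median SDs of 0.22 and 0.15. The SD was more than 2 times larger at day 1 in 1420 genes and at day 8 in 63. These genes share the same 36 brains, so the test took 1 value per brain, the median absolute deviation of its log2 CPM from its group's median. That value was 0.142 ± 0.0978 (SD, n = 16) at day 1 and 0.114 ± 0.026 (SD, n = 20) at day 8, a difference that did not pass (2-sided permutation test within environments, p = 0.258). With a distance taken from Spearman correlations the difference did pass (permutation p = 0.00187). BinB day 1 replicate 9, at 0.478, was the highest brain, and without it the day 1 mean was 0.120 ± 0.0406 (permutation p = 0.625). The Spearman distance was not recomputed without BinB day 1 replicate 9. The SDs of single genes given above include that brain and were not recomputed without it.

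The other lineage of the series, genotype M, was reared in the same environments and gave 34 brains at day 1 and 26 at day 8. The same comparison in these 60 brains, fitted on its own, called 6503 of 9650 genes (67.4%). Of the genes that fell at least 2-fold in genotype B, 577 were tested in M and 551 (95.5%) were called with the same sign there, and of the rises 358 of 397 (90.2%). Across the 9553 genes tested in both, Pearson's r of the age effects was 0.926 and Spearman's rho 0.854, a correlation across genes, which are not independent. The 2 genotypes share no library. Titles differ in form between the ages in genotype M as they do in B, so there too age and handling as separate sets cannot be told apart. All 8 largest falls were called with the same sign in M, with log2 changes from -11.87 (LOC109611483) to -6.80 (LOC105285658), as were all 8 largest rises, from 1.63 (LOC105285570) to 7.87 (LOC105288145).

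**Figure D5:**
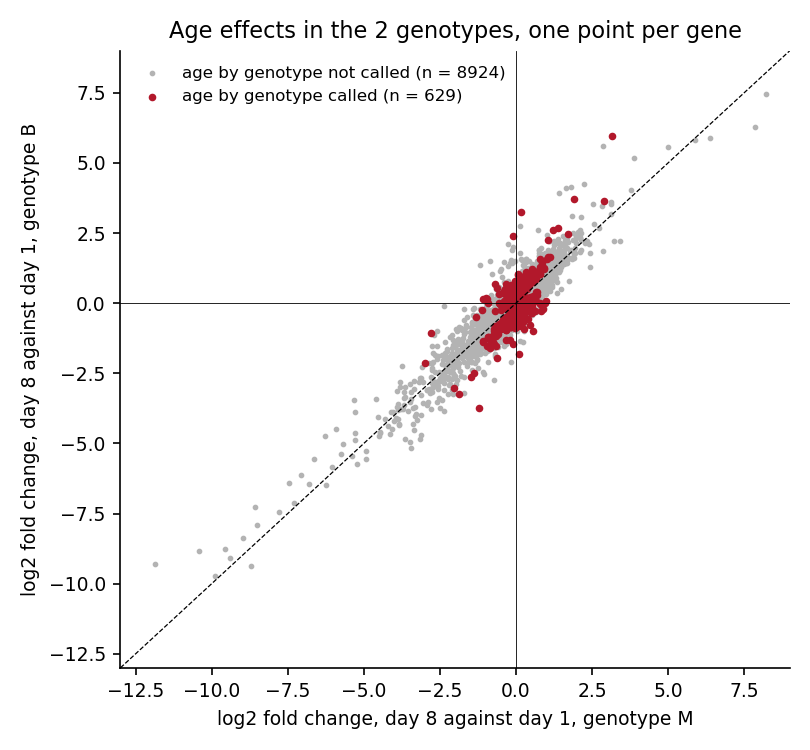
Log2 fold change of day 8 against day 1 in genotype B (vertical axis, 36 brains) and in genotype M (horizontal axis, 60 brains) for the 9553 genes tested in both, with equal changes on the dashed line. Red points are the 629 genes called in the age by genotype interaction, most of them close to the centre of the plot.

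Where genotype B differed from M was asked with the age by genotype interaction over all 96 libraries. It called 643 of 10056 genes (6.39%), 256 where the log2 change was higher in B and 387 where it was lower, while limma-voom called 212 and 173. Of the 629 tested in both genotypes, 243 changed in the same direction in both and further in B, 16 further in M, and 40 in opposite directions, while 194 were called in B alone and 135 in M alone. The count depends on single brains of genotype B: it was 166 without BinB day 1 replicate 9, 254 without BinM day 1 replicate 4 and 1048 without BinB day 1 replicate 7. The split by direction and size was not recomputed without these brains, and genotype M brains were not left out in turn. Among the 16 genes with the largest changes, 1 passed, LOC105286420, with 0.33 ± 0.35 CPM and 22.7 ± 37.6 CPM in B against 3.0 ± 9.49 CPM and 20.9 ± 23.8 CPM in M (difference of log2 changes 2.79, SE 0.88, adjusted p = 0.0424). It missed the threshold without any 1 of 7 brains (BinM day 1 replicates 4, 7 and 8, BinB day 1 replicate 9, BinM day 8 replicate 10, and BinB day 8 replicates 2 and 6, adjusted p = 0.0503 to 0.0892) and with limma-voom (1.08, adjusted p = 0.683). LOC105286420 also missed it with no filter and without outlying libraries (edgeR adjusted p = 0.0538 and 0.107).

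The 4 lowest interaction p-values belonged to moderate changes. LOC105279007 (chromosome 9, 8835959 to 8843561, minus strand) rose from 407 ± 37.7 CPM to 545 ± 34.2 CPM in B and went from 291 ± 24.4 CPM to 303 ± 18.2 CPM in M, where it did not pass (difference of log2 changes 0.37, adjusted p = 6.94e-08). LOC105275781 (chromosome 11, 7444132 to 7447943, minus strand) stood at 14.2 ± 4.24 CPM and 14.4 ± 1.85 CPM in B, with no change called (adjusted p = 0.91), and rose from 4.25 ± 0.949 CPM to 8.19 ± 1.97 CPM in M (difference -0.94, adjusted p = 1.14e-06). At both ages its mean was higher in B than in M.

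LOC105284463 (chromosome 6, 16844223 to 16846645, plus strand) rose in both, from 36.1 ± 4.4 CPM to 76.6 ± 5.26 CPM in B and from 51.5 ± 7.22 CPM to 78.1 ± 7.71 CPM in M (difference 0.50, adjusted p = 1.14e-06). LOC105276746 (chromosome 6, 13305737 to 13314703, plus strand) went from 161 ± 6.67 CPM to 141 ± 8.42 CPM in B and from 155 ± 10.3 CPM to 161 ± 9.59 CPM in M (difference -0.24, adjusted p = 9.7e-06). Its fall in B, -0.19 on the log2 scale, was called with TMM scaling and missed the threshold with library totals (log2 change -0.05, adjusted p = 0.161). A further 3 genes described above also passed. The difference of log2 changes was 1.21 for the lncRNA LOC105287559, 0.74 for the lncRNA LOC105284284 and 0.33 for LOC105286139 (adjusted p = 0.0111, 0.0384 and 0.0208), each rising in both genotypes and further in B. The last 2 missed the threshold without BinB day 1 replicate 9 (adjusted p = 0.0802 and 0.06), and LOC105284284 also without any 1 of 7 other brains (BinM day 1 replicates 4 and 8, BinB day 1 replicate 4, BinM day 8 replicates 6 and 9, and BinB day 8 replicates 7 and 10, adjusted p = 0.0508 to 0.0676). With limma-voom LOC105284284 missed it too (0.68, adjusted p = 0.0657). Without outlying libraries LOC105284284 and LOC105286139 both missed it (edgeR adjusted p = 0.116 and 0.0676).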

How the data were processed

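RNA of whole individual brains was extracted with Tri reagent and made into libraries with the KAPA stranded mRNA kit, per the labels' protocols. The authors deposited a table of raw counts per gene over 13755 features for 96 libraries, made with STAR 2.7.8a and featureCounts per the submitters' processing notes. Not given in the sources used here are the build, the strand setting and how reads with more than 1 match were treated. Gene positions and classes were read from the RefSeq table of assembly Obir_v5.4, whose spans equalled those in the deposited table for all 13553 features other than tRNAs.

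Groups were taken from the labels. The 36 genotype B libraries were fitted with edgeR 4.0.16 (R 4.3.3): TMM scaling, filterByExpr with a minimum count of 10, 1 coefficient per group, robust quasi-likelihood F tests, and Benjamini-Hochberg adjusted p under 0.05 as the threshold. The age effect is the mean of day 8 minus day 1 over both environments on the log2 scale, and its difference between environments is the age by environment interaction. The age by genotype interaction was fitted on all 96 libraries, and genotype M was also fitted alone on 60, a comparison chosen after seeing the data. The tests treat individuals as independent, and brains that shared a colony are not marked in the labels. CPM use TMM scaling, and log2 CPM a prior count of 2. Correlations between genes used log2 of CPM plus 0.05 and 100000 permutations in scipy 1.17.1 (Python 3.11.15). The SE of a log2 change was derived from its F test, as the absolute log2 change divided by the square root of F. Intervals are approximate 95% intervals built from that SE with the t distribution.

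Genes and lists were chosen with earlier results of these data known. Named genes are the 8 largest called rises and falls with a mean of at least 1 CPM and at least 5 CPM at the higher age, the 6 most abundant called genes changed at least 2-fold, the 4 lowest p-values of each interaction and the 2 largest lncRNA rises and falls. Added after seeing the values were the 4 most abundant rises, the 2 most abundant 8-fold falls and the members of runs of neighbours that hold a named gene. Lists of genes by function could not be applied, since no product names come with the identifiers. DESeq2 1.42.0, limma-voom (limma 3.58.1), other scalings, filters and designs, and leaving out each genotype B library in turn were alternatives. Tested on simulated data with 50 changed genes of each size, the age effect found 86% of 1.5-fold and 100% of 4-fold changes over 9607 genes. Over 9608 genes the age by environment test found 18% at 1.25-fold, 52% at 1.5-fold and 74% at 2-fold. At these sizes the age by genotype test found 36%, 70% and 80% over 9989 genes. No pair of libraries of a group agreed within counting noise.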

Additional observations from a re-analysis of the deposited data

Results flagged for a closer look

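Among the named genes and library measures, 45 of 144 sets of 4 to 10 brains held a brain so far from its nearest neighbour that Dixon's test at 95% marked it. Chance marks about 1 set in 20 where values are normally distributed. For genes the test used CPM with no log taken, many of them skewed toward high values, so that rate need not hold here. Genes that vary together also share their marks. The highest brain of its group was BinB day 1 replicate 2 in LOC105275422 (2506 CPM, next 854), LOC109611483 (694 CPM, next 196), LOC113561968 (1415 CPM, next 511), LOC113562077 (1131 CPM, next 219) and LOC105287113 (382 CPM, next 166). BinB day 1 replicate 2 was the highest of its group in LOC105285555 (221 CPM, next 99.9), LOC105283725 (1.03 CPM, next 0.0648), LOC105281739 (10.3 CPM, next 3.17), LOC105287262 (38.3 CPM, next 0.159) and LOC105277613 (42 CPM, next 9.62). In LOC113562088 (0.236 CPM, next 0.0713), LOC105286420 (49.8 CPM, next 19.9), LOC105279397 (64 CPM, next 26.1), LOC105281428 (873 CPM, next 414) and LOC105287262 (4.37 CPM, next 2.0), BinB day 8 replicate 6 was the highest of its group. The highest brain of its group was BinB day 8 replicate 6 in LOC105277613 (1.0 CPM, next 0.499). BinM day 1 replicate 9 was the highest of its group in LOC105288145 (2.0 CPM, next 0.0999), LOC105286420 (1.31 CPM, next 0.544), LOC105279397 (3.14 CPM, next 0.317), LOC105281428 (218 CPM, next 16.5) and LOC105281819 (602 CPM, next 439.9). In LOC105279483 (401 CPM, next 296), LOC105280521 (1264 CPM, next 959) and the median absolute deviation of log2 CPM from the group (0.478, next 0.155), BinB day 1 replicate 9 was the highest of its group.

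The highest brain of its group was BinM day 8 replicate 10 in LOC105286420 (173 CPM, next 41.8), LOC105283725 (64.8 CPM, next 6.46) and LOC105287262 (365 CPM, next 2.17). BinB day 1 replicate 4 was the highest of its group in LOC105288145 (2.08 CPM, next 0.213) and LOC105279397 (1.04 CPM, next 0.192). In LOC105282231 (44.7 CPM, next 8.14) and LOC105285570 (287 CPM, next 36.9), BinB day 8 replicate 3 was the highest of its group. The highest brain of its group was BinB day 8 replicate 9 in LOC105287113 (1.27 CPM, next 0.573). BinB day 8 replicate 9 was the lowest of its group in LOC105287559 (2.39 CPM, next 4.78). In LOC105283725 (0.254 CPM, next 0.115) and LOC105276973 (103 CPM, next 34), BinM day 1 replicate 6 was the highest of its group. The lowest brain of its group was BinM day 8 replicate 2 in LOC105281819 (478 CPM, next 1873) and features detected (10046, next 10648). BinM day 8 replicate 5 was the highest of its group in LOC105285555 (0.831 CPM, next 0.381) and LOC105288145 (118 CPM, next 44.6). In LOC105282231 (0.511 CPM, next 0.196), BinB day 1 replicate 3 was the highest of its group. The highest brain of its group was BinB day 1 replicate 7 in LOC105283508 (2.49 CPM, next 0.735). BinB day 8 replicate 1 was the highest of its group in features detected (11070, next 10850). In LOC105285658 (3.14 CPM, next 1.15), BinB day 8 replicate 2 was the highest of its group. The highest brain of its group was BinM day 8 replicate 1 in LOC105285658 (3.45 CPM, next 1.59). BinM day 8 replicate 7 was the highest of its group in LOC105276973 (8.97 CPM, next 2.67).

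The age effect differed between genotypes B and M, by the interaction test (edgeR), in 643 genes. Among named genes the difference of log2 changes (B minus M) was 2.79 in LOC105286420, 0.33 in LOC105286139, 0.37 in LOC105279007, -0.94 in LOC105275781, 0.50 in LOC105284463, -0.24 in LOC105276746, 0.74 in LOC105284284, 1.21 in LOC105287559.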

How the results depend on the processing

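The called set was close under other tests: 6179 of the 6259 genes were called with the same sign by DESeq2 (6354 in all), 6081 by limma-voom (6246), 6161 with RLE size factors (6282) and 6013 without the outlying library (6487). Library totals as scaling gave 4403 higher and 2082 lower genes, of which 5187 in all were shared. A test against a minimum change of 1.5-fold called 1289 genes, 564 higher and 725 lower. Leaving out each of the 36 libraries gave 6164 to 6487 calls (3025 to 3297 higher, 3102 to 3190 lower), 4882 to 5187 within environment B, 4808 to 5502 within environment M and 0 for age by environment. Age by genotype ranged from 166 (without BinB day 1 replicate 9) to 1048 (without BinB day 1 replicate 7), with 385 under limma-voom, 918 under DESeq2 and 114 without outlying libraries. The difference in spread between individuals passed by the Spearman distance alone (0.00461 higher at day 1, permutation p = 0.00187). It did not pass in the main setting (permutation p = 0.258), with a stricter filter of genes (permutation p = 0.202) or without the outlying library (permutation p = 0.625). Of 435 single-gene age effects under other settings than leaving out a library, 430 kept their call and direction. Reversals under left-out libraries were LOC105287262 (age effect -0.94 to 4.90) and LOC105275781 (-0.031 to 0.077), both uncalled as fitted on all 36 brains, and LOC105274935 (-0.47 to -0.27) passed without BinB day 8 replicate 4. The age by environment difference of LOC105279483 was 0.15 with DESeq2, and that of LOC105287262 was -2.34 with DESeq2 and -0.080 with limma-voom. Under left-out libraries the age by genotype differences of LOC105286420, LOC105284284 and LOC105286139 ranged over 2.27 to 3.07, 0.69 to 0.83 and 0.29 to 0.34. The causes of these changes were not tested. No paired analysis was possible because every library came from 1 individual and individuals that shared a colony are not marked. The titles of the day 8 samples carry no replicate number, so day 8 replicates are numbered here in the order of the samples. Counting error limits the lowest genes, such as those at 0 in most brains of an age.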
